A study of Mus musculus with 36 samples.

Results

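Ankrd37, Ddit4, Ndrg1, Mxi1, Bhlhe40, Bhlhe41, Cited2, Vldlr, Stc1 and Stc2 are known targets of the hypoxia-inducible factors (HIF) that act in feedback, growth restraint and stress. These 10 genes were chosen by name from the 22558 genes listed, and each was found once in the liver and once in the retina table. The study gave C57BL/6 mice roxadustat, DMOG or PBS and sequenced total RNA, with 6 libraries per treatment and tissue and 36 in all. DMOG (dimethyloxalylglycine) is a precursor of a 2-oxoglutarate analogue that blocks many 2-oxoglutarate-dependent dioxygenases, and roxadustat is a drug that inhibits the HIF prolyl hydroxylases. PBS, a salt solution, was the control. No transgene or mutant allele is named in the labels. Dose, time after dosing, age and the number of animals are not given, so p-values measure the spread between libraries.

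With oxygen present, prolyl hydroxylases of the Egln family mark the HIF alpha subunits, and the von Hippel-Lindau protein then sends them for degradation. When the hydroxylases are blocked, the alpha subunits join the beta subunit Arnt, bind the core DNA sequence ACGTG or GCGTG and recruit the coactivators p300 and CBP. Among the targets are genes that limit the response itself: Cited2 competes with the alpha subunits for p300 and CBP, while Ddit4 restrains the growth kinase mTORC1 and Mxi1 opposes Myc.

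The RNA did not match the tissue labels, and each library is named here by the tissue its RNA came from. The libraries labelled liver held retina RNA: the summed level of 12 photoreceptor markers was 10098 to 17825 FPKM in them. In the libraries labelled retina that sum was 2.46 to 3.86 FPKM, and 11 listed hepatocyte markers summed to 28508 to 49388 FPKM. Values are FPKM (fragments mapped to a gene, scaled to its length and to the depth of the library), with 433021 to 540324 FPKM in all per liver library and 542785 to 617853 per retina library. Read counts are unknown. A relative depth taken from the spacing of low values spanned 0.791 to 1.14 in liver RNA and 0.861 to 1.21 in retina RNA. In bulk RNA, fewer cells of a type and less RNA per cell cannot be told apart.

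DMOG replicate 5 of liver RNA was the lowest DMOG library for most of the 10 genes. It was not among the libraries that stood apart by Dixon's test, run gene by gene and given below. Of the 10 genes, 9 had their lowest DMOG value in it, and the exception was Bhlhe41. Of all 12657 genes tested in liver RNA, 31.5% were lowest there. In this library 5 of the 10 genes lay within the range of the PBS libraries, 3 lay below it and 2 above it. Egln3, a HIF target outside the 10 that encodes a HIF prolyl hydroxylase, stood at 8.23 FPKM in it, against 58.0 ± 12.9 FPKM in the other 5 DMOG libraries (SD). Counts over genes and the DMOG values of the 10 genes in liver RNA are therefore given with and without it. The library was singled out with the levels of HIF targets in view, so values without it describe the other 17 liver libraries and are no independent evidence of a larger DMOG response.

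The stretches before the first exon are shown for the 5 genes whose windows hold ACGTG, a form of the HIF core sequence named above. Stc2, whose window holds GCGTG alone, is not shown. Promoter windows of 300 bases (250 before the transcription start and 50 after it) from RefSeq on GRCm38.p6 were found for 7 of the 10 genes. These were Ankrd37, Ddit4, Cited2, Mxi1, Bhlhe41, Stc2 and Vldlr, with 10 windows in all. Capitals mark ACGTG or GCGTG on either strand, and the letters run 5′ to 3′ on the gene's strand up to the last base before the first exon in the annotation. Ankrd37 is at chr8:45999868-46000100, minus strand. Ddit4 is at chr10:59951835-59952020, minus strand. Cited2 is at chr10:17722978-17723217, plus strand. Mxi1, at the second of its 3 windows, is at chr19:53329163-53329412, plus strand. Bhlhe41 is at chr6:145865559-145865670, minus strand.
Ankrd37: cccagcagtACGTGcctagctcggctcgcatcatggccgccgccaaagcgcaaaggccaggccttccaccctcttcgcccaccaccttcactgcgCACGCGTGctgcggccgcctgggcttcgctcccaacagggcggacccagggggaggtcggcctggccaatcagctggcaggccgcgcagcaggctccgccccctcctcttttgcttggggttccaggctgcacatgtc
Ddit4: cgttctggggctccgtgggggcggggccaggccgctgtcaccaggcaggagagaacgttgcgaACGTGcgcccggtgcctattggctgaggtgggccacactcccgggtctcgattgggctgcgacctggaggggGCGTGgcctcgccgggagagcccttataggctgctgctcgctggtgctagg
Cited2: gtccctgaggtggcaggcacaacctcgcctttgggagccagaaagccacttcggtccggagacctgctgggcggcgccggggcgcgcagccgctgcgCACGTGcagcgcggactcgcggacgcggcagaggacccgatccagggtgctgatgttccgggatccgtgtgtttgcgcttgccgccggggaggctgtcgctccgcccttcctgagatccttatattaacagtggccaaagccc
Mxi1: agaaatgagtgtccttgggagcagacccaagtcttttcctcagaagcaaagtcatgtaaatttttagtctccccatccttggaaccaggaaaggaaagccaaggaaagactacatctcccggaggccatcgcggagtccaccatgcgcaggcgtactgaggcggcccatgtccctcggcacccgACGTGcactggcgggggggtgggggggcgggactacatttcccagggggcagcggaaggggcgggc
Bhlhe41: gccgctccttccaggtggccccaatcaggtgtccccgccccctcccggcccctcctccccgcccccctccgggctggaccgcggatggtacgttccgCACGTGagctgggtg

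In whole windows, ACGTG on either strand was found in 5 of the 7 genes, the 5 shown. It was found in 21.8% of the 27025 genes with a window. GCGTG was found in Ankrd37, Ddit4, Stc2 and Bhlhe41, which is 4 of the 7 genes, against 35.2% of all genes with a window. In Cited2 and Bhlhe41 the ACGTG match lies in the palindrome CACGTG, which counts on both strands and occurs in 7.15% of all 32851 windows. In Ankrd37 the GCGTG matches are an overlapping pair, 1 on each strand. The windows of Vldlr held neither motif. A match is a description of these letters and says nothing on whether HIF binds there.

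Under PBS, 9 of the 10 genes had a higher level in retina than in liver, and Bhlhe40 had a lower one. In PBS libraries the liver and the retina values did not overlap for any of the 10. The share of all genes separated in this way was not counted, so this is not shown to be particular to the 10. The tables were scaled separately, so these ratios of mean FPKM are approximate and were not tested. The largest ratio was that of Bhlhe41, a basic helix-loop-helix repressor of the clock, which averaged 0.141 FPKM in liver against 17.0 FPKM in retina. Its relative Bhlhe40 averaged 29.4 FPKM in liver against 4.59 FPKM in retina, a liver level 6.40 times that of retina. Ndrg1, a stress-induced gene named for its repression by N-myc, stood at 8.74 FPKM in liver against 302 FPKM in retina. For the other 7 genes the mean retina level was 3.08 times (Stc2) to 17.1 times (Ddit4) that of liver. By level in PBS, Bhlhe40 was the highest of the 10 in liver RNA and Ndrg1 the highest in retina RNA, and the PBS values of Ndrg1 and Cited2 in liver overlapped.

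In liver RNA each compound raised several of these genes, and none fell. Of the 9 genes that passed the filter for testing, a table mean of 0.5 FPKM or more, 6 rose under roxadustat, where 2.16% of all genes tested rose. Under DMOG 8 of the 9 rose, where 8.26% of all genes tested rose. Stc1 and Stc2 averaged under 0.5 FPKM in PBS libraries and passed the filter through the treated groups. Without these 2, 4 of 7 genes rose under roxadustat and 6 of 7 under DMOG, and with no filter 4 of 10 and 8 of 10 rose. Among all 18298 genes in the fit with no filter, 259 rose under roxadustat and 994 under DMOG. A gene was said to rise or fall at an adjusted p under 0.05 by limma on log2(FPKM + 0.5). The added 0.5 makes the fold change of a scarce gene look smaller than it is. The median log2 fold change over the 9 was 0.96 for roxadustat and 0.91 for DMOG, against -0.0007 and 0.01 over all genes tested. With 0.1 FPKM added in place of 0.5 it was 1.18 for roxadustat and 1.42 for DMOG. Without DMOG replicate 5 the DMOG median was 1.07, so the order of these medians is not fixed. The medians 0.96 and 0.91 are the values of Stc2 and Stc1 themselves. Over the 7 genes without these 2 the medians were 0.77 for roxadustat and 1.37 for DMOG, or 1.69 for DMOG without DMOG replicate 5. The counts without that library were 8 of 9 for roxadustat and 9 of 9 for DMOG. The 3 groups share 1 estimate of the error, and both it and the DMOG means moved. The shares of all genes tested that rose were then 4.12% and 17.3%. The summed level of 9 macrophage markers was 599 to 1401 FPKM under roxadustat, 533 to 1665 FPKM under DMOG and 699 to 1360 FPKM under PBS. None of the 9 passed under either compound by limma (0 and 1 at an unadjusted p under 0.05), but 6 rose under DMOG without replicate 5, and their part in the results was not tested.

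**Figure D1:**
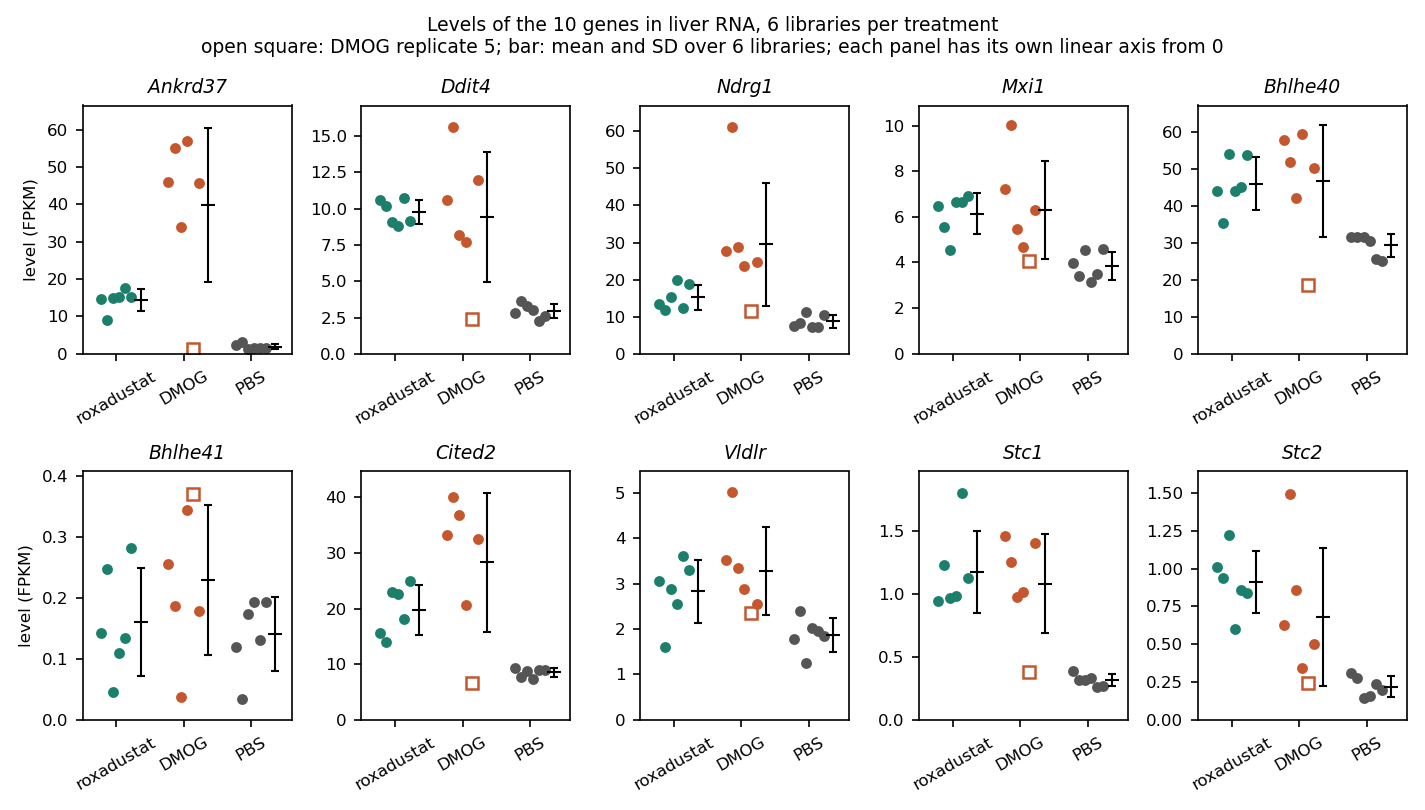
Levels of the 10 genes in liver RNA (y axis, FPKM, linear from 0, own axis per panel) for roxadustat, DMOG and PBS, 6 libraries each, with the mean and SD as bars. The open square is DMOG replicate 5, which is the lowest DMOG value in 9 of the 10 panels.

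Ankrd37, which encodes an ankyrin repeat protein, changed most. Its lowest, median and highest values were 9.07, 15.1 and 17.7 FPKM under roxadustat, 1.23, 45.9 and 56.9 FPKM under DMOG, and 1.41, 1.65 and 3.07 FPKM under PBS. All 6 roxadustat libraries and 5 of 6 DMOG libraries were above every PBS library. The log2 fold change was 2.62 ± 0.61 for roxadustat (SE, adjusted p = 0.0192) and 3.52 ± 0.61 for DMOG (adjusted p = 0.00120). Without DMOG replicate 5 the DMOG value was 4.31 ± 0.18, and the 5 remaining libraries averaged 47.5 ± 9.15 FPKM.

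Ddit4, also called REDD1, restrains mTORC1 through the TSC complex. Its lowest, median and highest values were 8.83, 9.65 and 10.8 FPKM under roxadustat, 2.41, 9.40 and 15.6 FPKM under DMOG, and 2.28, 2.91 and 3.65 FPKM under PBS. The roxadustat libraries were tightly grouped, with a coefficient of variation of 8.55%, and all lay above PBS. The DMOG libraries were spread widely, and replicate 5 alone fell in the PBS range. The log2 fold change was 1.59 ± 0.27 for roxadustat (adjusted p = 0.00241) and 1.37 ± 0.27 for DMOG (adjusted p = 0.00240), and the DMOG value was 1.69 ± 0.14 without replicate 5.

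Ndrg1 was the gene whose 6 DMOG libraries all lay above the 6 PBS libraries, which held for 1.33% of all genes tested. Its lowest, median and highest values were 11.9, 14.4 and 19.9 FPKM under roxadustat, 11.7, 26.2 and 61.1 FPKM under DMOG, and 7.32, 7.95 and 11.3 FPKM under PBS. The roxadustat libraries, too, were all above PBS. Ndrg1 rose under DMOG by a log2 fold change of 1.56 ± 0.26 (adjusted p = 0.00107), and by 1.79 ± 0.21 without replicate 5. The roxadustat value, 0.77 ± 0.26, missed the threshold (adjusted p = 0.103) and passed it without DMOG replicate 2 or without DMOG replicate 5 (adjusted p = 0.0227 without DMOG replicate 5).

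Of the 3 transcriptional repressors among the 10, Mxi1 rose in liver under both compounds, Bhlhe40 passed under neither with all libraries, and Bhlhe41 was not tested. Mxi1, a Max partner that opposes Myc, had lowest, median and highest values of 4.54, 6.56 and 6.93 FPKM under roxadustat, 4.07, 5.89 and 10.02 FPKM under DMOG, and 3.14, 3.74 and 4.60 FPKM under PBS. The ranges of both compounds met that of PBS at their low ends. Its log2 fold change was 0.61 ± 0.16 for roxadustat (adjusted p = 0.0404) and 0.60 ± 0.16 for DMOG (adjusted p = 0.0144), or 0.70 ± 0.15 for DMOG without replicate 5. Bhlhe40 had lowest, median and highest values of 35.4, 44.6 and 54.2 FPKM under roxadustat, 18.6, 51.1 and 59.6 FPKM under DMOG, and 25.1, 31.1 and 31.7 FPKM under PBS. All roxadustat libraries and 5 of 6 DMOG libraries were above PBS. The log2 fold changes of Bhlhe40, 0.63 ± 0.21 for roxadustat (adjusted p = 0.0938) and 0.58 ± 0.21 for DMOG (adjusted p = 0.0593), did not pass. Without DMOG replicate 5 they were 0.63 ± 0.11 (adjusted p = 8.94e-04) and 0.82 ± 0.11 (adjusted p = 2.67e-05), and both passed. Bhlhe41 stayed under the filter, with at most 0.282 FPKM under roxadustat, 0.371 FPKM under DMOG and 0.194 FPKM under PBS.

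Cited2, the competitor for p300 and CBP, had lowest, median and highest values of 13.9, 20.4 and 24.9 FPKM under roxadustat, 6.66, 32.9 and 40.1 FPKM under DMOG, and 7.42, 8.80 and 9.33 FPKM under PBS. All 6 roxadustat libraries lay above PBS, as did all DMOG libraries but replicate 5, which lay below it. The log2 fold change was 1.14 ± 0.31 for roxadustat (adjusted p = 0.0425) and 1.49 ± 0.31 for DMOG (adjusted p = 0.00309), or 1.85 ± 0.16 for DMOG without replicate 5. Of the 8 rises under DMOG, all held whichever single library was left out. Of the 6 under roxadustat, those of Cited2 and Mxi1 did not: leaving out any of roxadustat replicates 1, 4, 5 and 6 or PBS replicates 1 to 5 ended both calls, and the count of rises was 4 at its lowest. With no filter on low values both also missed the threshold (adjusted p = 0.0637 for Cited2 and 0.0605 for Mxi1). Their values were 1.14 ± 0.15 and 0.61 ± 0.15 without DMOG replicate 5, where both passed.

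Vldlr, a receptor for triglyceride-rich lipoproteins and for reelin, had lowest, median and highest values of 1.61, 2.96 and 3.60 FPKM under roxadustat, 2.34, 3.11 and 5.02 FPKM under DMOG, and 1.25, 1.90 and 2.39 FPKM under PBS. In each treated group 1 library lay inside the PBS range, and the other 5 lay above it. Vldlr rose under DMOG by a log2 fold change of 0.65 ± 0.17 (adjusted p = 0.0111), and by 0.73 ± 0.17 without DMOG replicate 5. The roxadustat value of 0.47 ± 0.17 did not pass (adjusted p = 0.119), except without roxadustat replicate 2.

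Stc1 and Stc2, which encode secreted glycoproteins of the stanniocalcin family, were scarce under PBS. Stc1 had lowest, median and highest values of 0.944, 1.05 and 1.798 FPKM under roxadustat, 0.379, 1.13 and 1.46 FPKM under DMOG, and 0.257, 0.317 and 0.389 FPKM under PBS. Stc2 had 0.602, 0.899 and 1.22 FPKM under roxadustat, 0.241, 0.566 and 1.50 FPKM under DMOG, and 0.142, 0.218 and 0.312 FPKM under PBS. For both genes the 6 roxadustat libraries were all above PBS, while DMOG replicate 5 lay within the PBS range. The ratio of mean FPKM of roxadustat to PBS was 3.74 for Stc1 and 4.14 for Stc2. On the log2(FPKM + 0.5) scale the change was 1.02 ± 0.16 for Stc1 under roxadustat (adjusted p = 0.00139) and 0.91 ± 0.16 under DMOG (adjusted p = 0.00125). The change of Stc2 was 0.96 ± 0.18 under roxadustat (adjusted p = 0.00417) and 0.64 ± 0.18 under DMOG (adjusted p = 0.0189). Without DMOG replicate 5 the DMOG values were 1.07 ± 0.11 for Stc1 and 0.75 ± 0.17 for Stc2. Their PBS means, 0.314 FPKM for Stc1 and 0.220 FPKM for Stc2, lay under the filter, which both passed through their treated groups. With no filter the adjusted p for roxadustat was 0.00250 for Stc1 and 0.00710 for Stc2, and for DMOG it was 0.00245 and 0.0270. Counted over the 10, 7 genes had all 6 roxadustat libraries above all 6 PBS libraries, which held for 2.76% of all genes tested.

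**Figure D2:**
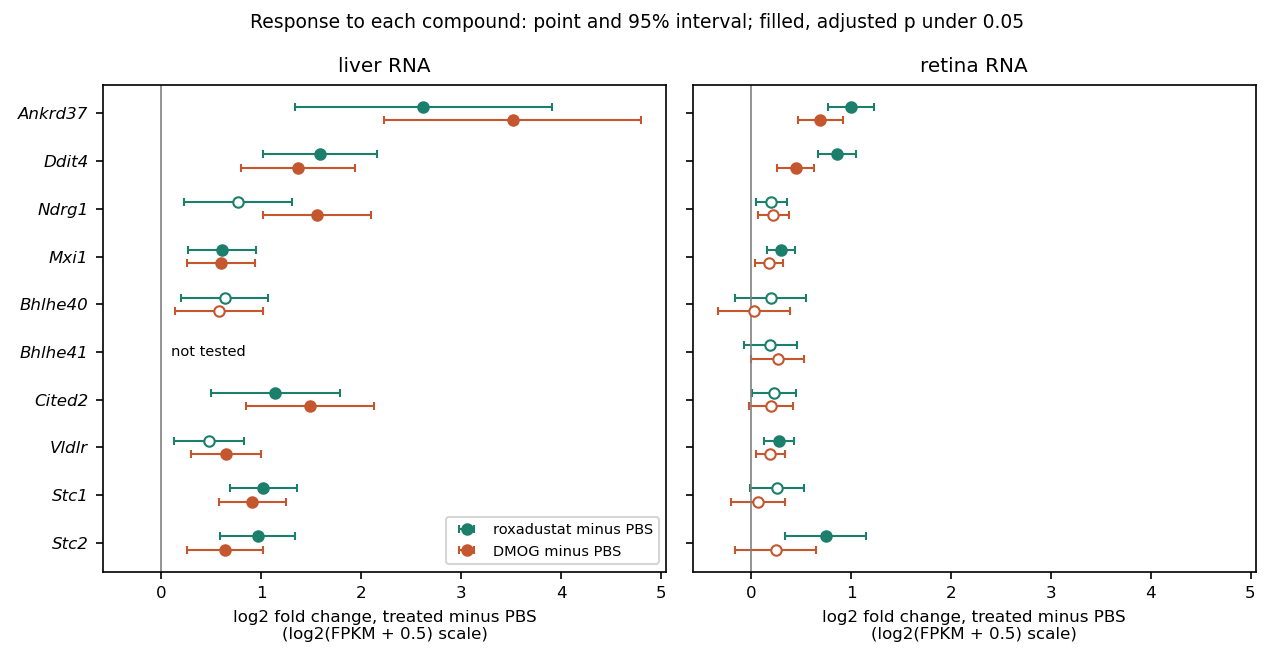
Log2 fold changes on the log2(FPKM + 0.5) scale (x axis) of the 10 genes (y axis) for roxadustat minus PBS and DMOG minus PBS, in liver RNA at left and retina RNA at right. Points are estimates, bars are 95% intervals, and filled points have an adjusted p under 0.05: 6 and 8 in liver RNA, 5 and 2 in retina RNA.

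The compounds were also compared with each other in liver RNA. With all 18 libraries, 0 of the 9 genes differed by limma, where 1.86% of all genes tested were higher and 1.14% lower under roxadustat. At an unadjusted p under 0.05 there was 1, beside 2267 of all 12657 genes tested, in either direction. Without DMOG replicate 5, 3 of the 9 were past the threshold and lower under roxadustat, where 7.15% of all genes tested were. Since that library was left out for its low levels of genes such as these, the values without it are a description and not a test of roxadustat against DMOG. Ankrd37 averaged 14.4 ± 2.85 FPKM under roxadustat, against 47.5 ± 9.15 FPKM in the other 5 DMOG libraries, a log2 fold change of -1.69 ± 0.18. Ndrg1 averaged 15.3 ± 3.38 FPKM under roxadustat, against 33.1 ± 15.7 FPKM in those DMOG libraries (-1.02 ± 0.21). Cited2 averaged 19.7 ± 4.47 FPKM under roxadustat, against 32.7 ± 7.37 FPKM in them (-0.71 ± 0.16). With the library kept, these values were -0.89 ± 0.61, -0.79 ± 0.26 and -0.35 ± 0.31. For the other 6 genes the estimate without it ran from -0.25 (Vldlr) to 0.21 (Stc2). Its 95% interval was -0.40 to 0.20 for Ddit4 and -0.42 to 0.22 for Mxi1. Doses are not given, so a difference between the compounds here is one between the doses used.

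**Figure D3:**
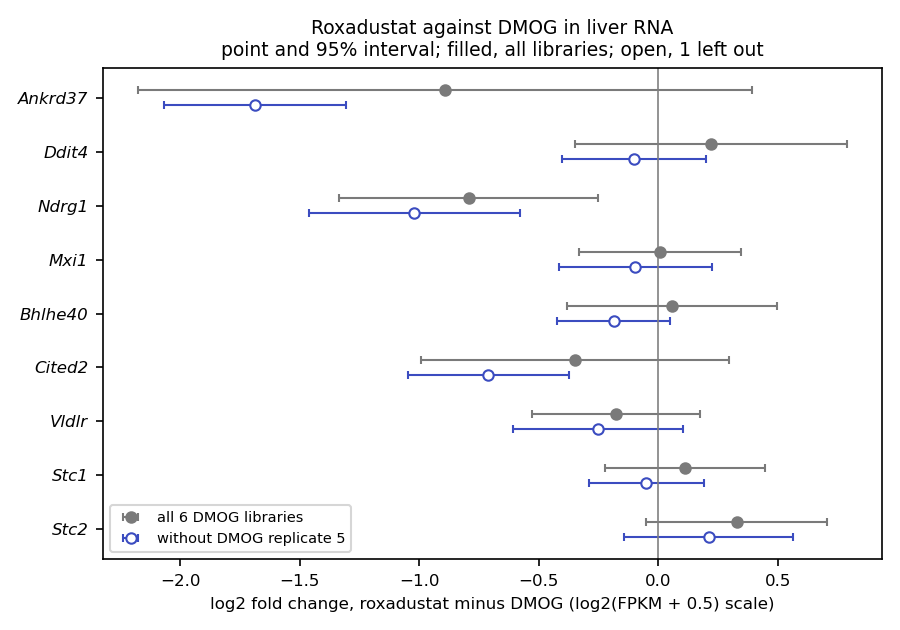
Roxadustat minus DMOG in liver RNA (x axis, log2 fold change on the log2(FPKM + 0.5) scale) for the 9 genes tested (y axis), with all 6 DMOG libraries and without DMOG replicate 5. Points are estimates (filled with all libraries, open without that library) and bars are 95% intervals; leaving it out moves Ankrd37 most, to -1.69.

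In retina RNA the changes were smaller, and roxadustat raised more of the genes than DMOG did. All 10 genes were tested. Under roxadustat 5 rose (Ankrd37, Ddit4, Mxi1, Vldlr and Stc2), where 1.69% of all genes tested rose. Under DMOG 2 rose (Ankrd37 and Ddit4), where 0.370% of all genes tested rose. None fell under either compound by limma. At an unadjusted p under 0.05 the counts were 7 and 6, all higher, beside 2409 and 1892 of all 13779 genes tested, in either direction. The median log2 fold change over the 10 was 0.27 for roxadustat and 0.21 for DMOG, against -0.0008 and 0.01 over all genes tested. Whether more genes rose under one compound than under the other was not tested as a count.

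Markers of tissue next to the retina moved with treatment in these libraries. The summed level of 10 lens and pigment epithelium markers was 444 to 9746 FPKM under roxadustat, 219.6 to 1029 FPKM under DMOG and 1937 to 19109 FPKM under PBS. Of the 9 of these markers tested, 1 fell under roxadustat and 5 fell under DMOG, where 0.653% and 0.697% of all genes tested fell. The fit was repeated without the 4 libraries of highest sum, which are roxadustat replicate 1 and PBS replicates 1, 2 and 6. This did not level the markers: their sum was 444 to 1012 FPKM in the 5 roxadustat libraries kept and 219.6 to 1029 FPKM under DMOG, against 1937, 2435 and 3525 FPKM in the 3 PBS libraries kept. Then 3 of the 10 genes rose under roxadustat (Ankrd37, Ddit4 and Stc2) and 1 under DMOG (Ankrd37), where 1.28% and 0.0508% of all genes tested rose. The summed level of 9 listed erythroid markers was 86.2 to 114 FPKM under roxadustat, 77.4 to 110 FPKM under DMOG and 52.7 to 64.1 FPKM under PBS. Without Tfrc, itself a HIF target, that sum was 12.8 to 57.1 FPKM under roxadustat, 23.8 to 47.5 FPKM under DMOG and 10.9 to 19.4 FPKM under PBS. Relative depth was 0.861 to 1.13 under roxadustat, 1.00 to 1.21 under DMOG and 0.901 to 0.957 under PBS. The part of the erythroid sum and of depth in the results was not tested.

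Ankrd37 in retina had lowest, median and highest values of 36.2, 43.4 and 48.3 FPKM under roxadustat, 26.1, 34.6 and 41.6 FPKM under DMOG, and 16.2, 20.9 and 26.2 FPKM under PBS. The roxadustat libraries all lay above PBS, which was so for 4 of the 10 genes (Ankrd37, Ddit4, Mxi1 and Vldlr) and for 1.44% of all genes tested. For DMOG it was so for 0 of the 10 and for 0.523% of all genes tested. For Ankrd37 1 DMOG library lay just under the highest PBS library. The log2 fold change was 1.00 ± 0.11 for roxadustat (adjusted p = 1.11e-05) and 0.69 ± 0.11 for DMOG (adjusted p = 0.00427). Without the 4 libraries of high lens marker level it was 1.06 ± 0.14 and 0.71 ± 0.13, and both passed.

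Ddit4 was the 1 gene of the 10 that passed between the compounds in retina. Its lowest, median and highest values were 83.6, 89.1 and 103 FPKM under roxadustat, 57.8, 68.5 and 80.1 FPKM under DMOG, and 39.4, 51.7 and 58.1 FPKM under PBS. All 6 roxadustat libraries were above all 6 DMOG libraries, as for 1.20% of all genes tested, and above all PBS libraries. Ddit4 rose by a log2 fold change of 0.86 ± 0.09 under roxadustat (adjusted p = 6.58e-06) and 0.45 ± 0.09 under DMOG (adjusted p = 0.0195). Roxadustat minus DMOG was 0.41 ± 0.09 (adjusted p = 0.0202), where 0.980% of all genes tested were higher. At an unadjusted p under 0.05 there were 3, the others being Ankrd37 (0.31 ± 0.11, adjusted p = 0.252) and Stc2 (0.50 ± 0.19, adjusted p = 0.313). Of all 13779 genes tested, 1503 were under it, in either direction. The difference of Ddit4 missed the threshold without DMOG replicate 2, roxadustat replicate 3 or roxadustat replicate 4. The DMOG rise missed it without DMOG replicate 4, DMOG replicate 6 or PBS replicate 6, and at 0.39 ± 0.09 without the 4 libraries of high lens marker level (adjusted p = 0.138).

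Mxi1 and Vldlr rose in retina under roxadustat by about the same small amount. Mxi1 had lowest, median and highest values of 29.7, 32.6 and 34.5 FPKM under roxadustat, 27.8, 29.7 and 31.1 FPKM under DMOG, and 20.6, 27.2 and 28.6 FPKM under PBS. Vldlr, whose loss in mice leads to abnormal vessels in the retina, had 33.2, 37.6 and 41.3 FPKM under roxadustat, 31.9, 35.4 and 41.7 FPKM under DMOG, and 25.7, 31.8 and 32.9 FPKM under PBS. For both genes all roxadustat libraries lay above all PBS libraries, though PBS replicate 1 was itself far below the other PBS libraries. The log2 fold change under roxadustat was 0.30 ± 0.07 for Mxi1 (adjusted p = 0.0183) and 0.28 ± 0.07 for Vldlr (adjusted p = 0.0396). Without the 4 libraries of high lens marker level, which include that PBS library, the values were 0.22 ± 0.06 (adjusted p = 0.0719) and 0.21 ± 0.08 (adjusted p = 0.235). Under DMOG the values were 0.18 ± 0.07 for Mxi1 and 0.19 ± 0.07 for Vldlr, and neither passed (adjusted p = 0.225 and 0.222). The roxadustat call of Vldlr was also lost in 10 of 18 fits that left out 1 library, and that of Mxi1 in none of them.

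Stc2 remained scarce in retina, with lowest, median and highest values of 1.08, 1.31 and 2.07 FPKM under roxadustat, 0.602, 0.751 and 1.70 FPKM under DMOG, and 0.314, 0.681 and 1.12 FPKM under PBS. The roxadustat and PBS ranges met at 1 library. Its rise under roxadustat, 0.75 ± 0.19, passed narrowly (adjusted p = 0.0457) and missed the threshold in 13 of 18 fits that left out 1 library. Without the 4 libraries of high lens marker level it was 0.94 ± 0.22 (adjusted p = 0.0401). The DMOG value of 0.24 ± 0.19 did not pass. Stc1 had medians of 1.70, 1.29 and 1.27 FPKM under roxadustat, DMOG and PBS, with a log2 fold change of 0.26 ± 0.13 for roxadustat that did not pass (adjusted p = 0.315).

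Ndrg1, Cited2, Bhlhe40 and Bhlhe41 passed in neither comparison with PBS in retina. Ndrg1, already the most abundant of the 10, averaged 346 ± 29.4 FPKM under roxadustat, 350.2 ± 15.8 FPKM under DMOG and 302 ± 39.1 FPKM under PBS. Its log2 fold changes were 0.20 ± 0.07 and 0.22 ± 0.07 (adjusted p = 0.155 and 0.174), and the DMOG value passed without PBS replicate 4. Cited2 averaged 60.4 ± 2.27 FPKM under roxadustat, 59.1 ± 3.66 FPKM under DMOG and 52.3 ± 10.4 FPKM under PBS, where PBS replicate 1 stood at 33.5 FPKM. The 95% interval of the roxadustat response of Cited2 was 0.01 to 0.45, and that of the DMOG response was -0.02 to 0.42. For Bhlhe40 these intervals were -0.16 to 0.55 and -0.33 to 0.39, and for Bhlhe41 they were -0.07 to 0.46 and 0.00 to 0.53. All 8 values were above 0 and small beside those of Ankrd37.

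**Figure D4:**
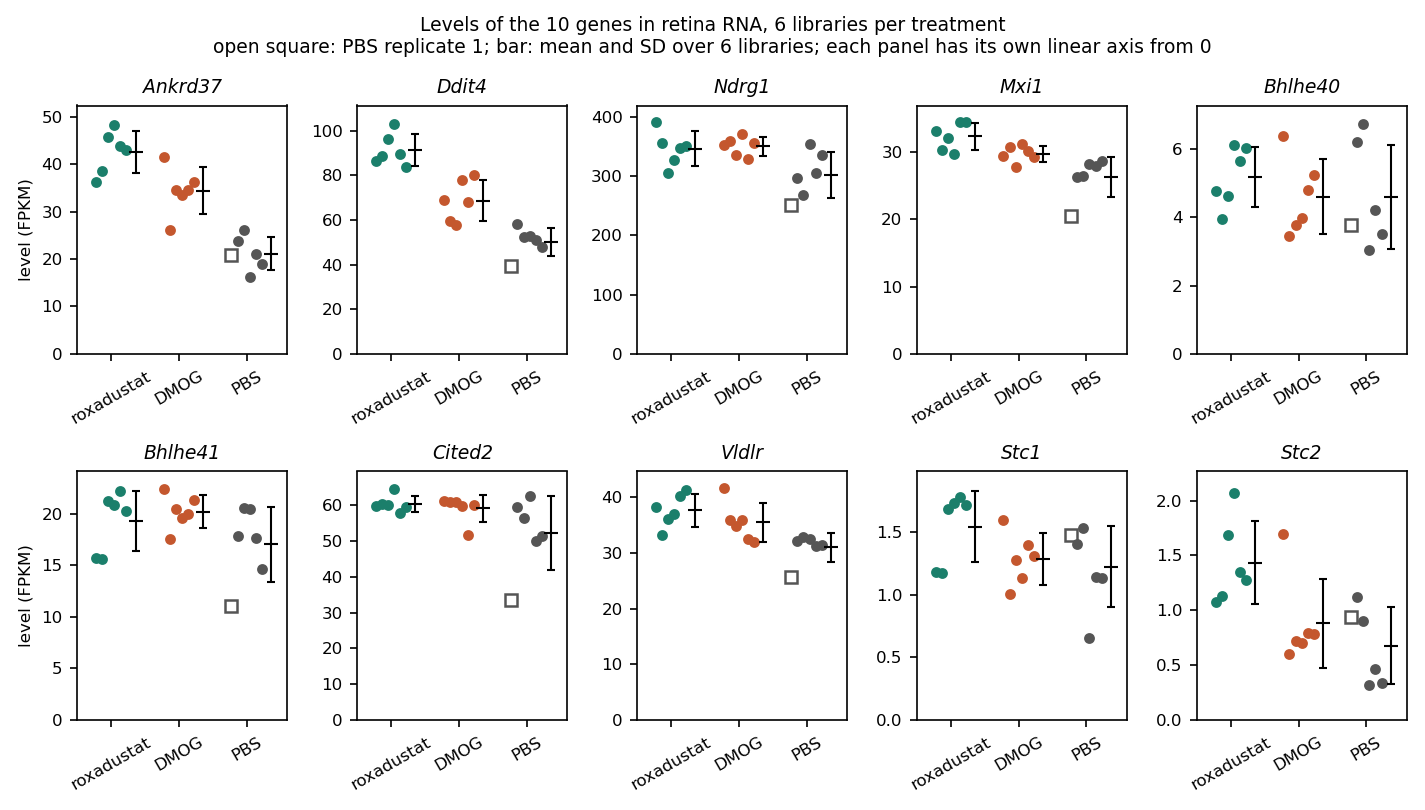
Levels of the 10 genes in retina RNA (y axis, FPKM, linear from 0, own axis per panel) for roxadustat, DMOG and PBS, 6 libraries each, with the mean and SD as bars. The open square is PBS replicate 1, the lowest PBS value in 6 of the 10 panels, and for Ddit4 every roxadustat value lies above every DMOG and PBS value.

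The response in liver was set against that in retina by the difference of the log2 fold changes, liver minus retina, over 36 libraries and the 11101 genes tested in both. For DMOG 5 of the 9 genes responded more in liver, where 6.97% of all these genes did. The difference was 2.82 ± 0.64 for Ankrd37 (adjusted p = 0.00327), 1.34 ± 0.28 for Ndrg1 (adjusted p = 0.00146) and 1.29 ± 0.33 for Cited2 (adjusted p = 0.00856). It was 0.92 ± 0.29 for Ddit4 (adjusted p = 0.0304) and 0.84 ± 0.21 for Stc1 (adjusted p = 0.00630). Without DMOG replicate 5 of liver RNA, 8 of the 9 passed, all but Stc2, where 13.3% of all these genes did. For roxadustat only Stc1 of the 9 passed, at 0.76 ± 0.21 (adjusted p = 0.0442), where 1.22% of all these genes did. Without the same DMOG library Ankrd37 (1.62 ± 0.21), Ddit4 (0.73 ± 0.17), Cited2 (0.91 ± 0.19) and Stc1 (0.76 ± 0.17) passed, against 2.26% of all these genes. Leaving it out did not move the roxadustat differences and made their SE smaller. That library was left out for its low levels of genes such as these. The counts and values without it are therefore a description and not a test of the tissue difference. All 18 differences were above 0. Stc1 and Stc2, whose liver PBS means lay under 0.5 FPKM, entered this comparison through their treated liver libraries. A gene with a high PBS level in retina has less of its fold change hidden by the added 0.5 FPKM than the same gene in liver. The liver response of genes scarce in liver is therefore understated, for Ankrd37 and Ddit4 as well as for Stc1, Stc2 and Vldlr.

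Some libraries held the highest or lowest value of several of the 10 genes. Those named here were picked from all libraries for their large counts, and many others held few such values. In liver RNA DMOG replicate 2 held the highest DMOG value of 6 of the 10, against 17.6% of all genes tested. Within roxadustat, replicate 2 was lowest for 5 of the 10, against 8.36% of all genes tested. In retina RNA DMOG replicate 1 was highest for 7 of the 10, against 20.8%, and PBS replicate 1 was lowest for 6 of the 10, against 34.7%. Over the 18 liver libraries, the gene outside the 10 whose pattern was most like that of Ankrd37 was Epo, which encodes erythropoietin (Pearson's r = 0.993). For Ddit4 it was Pdk1 (r = 0.970), for Ndrg1 9430023L20Rik (r = 0.939), for Mxi1 Bnip3l (r = 0.906) and for Bhlhe40 Keap1 (r = 0.921). For Cited2 it was Bnip3 (r = 0.955), for Vldlr Pde3b (r = 0.869), for Stc1 Atg4c (r = 0.959) and for Stc2 Plod2 (r = 0.935). Over the 18 retina libraries it was Gapdh for Ankrd37 (r = 0.921), Polr2d for Ddit4 (r = 0.931), Rnf145 for Ndrg1 (r = 0.921), Mllt10 for Mxi1 (r = 0.914) and Fam196b for Bhlhe40 (r = 0.805). It was Pmm1 for Bhlhe41 (r = 0.883), Nphp4 for Cited2 (r = 0.963), Wdr59 for Vldlr (r = 0.940), Bag2 for Stc1 (r = 0.901) and Pfkfb3 for Stc2 (r = 0.947). The nearest gene was in the list of other HIF targets used here for 4 of 9 genes in liver and for 2 of 10 in retina. These correlations describe libraries of 3 treatments pooled, and the treatment steps and shared scaling of a library enter them.

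Genes around the 10 were counted by list, to be read against the shares of all genes tested. Some genes, among them Egln1, Egln3, Eif4ebp1 and Per1, are in more than 1 list and are counted in each. In liver RNA 2.16% rose and 2.02% fell under roxadustat, and 8.26% rose and 11.7% fell under DMOG. With DMOG replicate 5 left out, these shares were 4.12% and 4.65% under roxadustat, and 17.3% and 18.1% under DMOG. In retina RNA 1.69% rose and 0.653% fell under roxadustat, and 0.370% rose and 0.697% fell under DMOG. At an unadjusted p under 0.05, in either direction, far more genes passed. In liver RNA it was 2394 of 12657 genes under roxadustat and 4360 under DMOG. In retina RNA it was 2409 of 13779 and 1892. Of 40 other HIF targets, 37 were tested in liver RNA, where 26 rose and 0 fell under roxadustat and 30 rose and 0 fell under DMOG (0 and 1 lower at an unadjusted p under 0.05). With DMOG replicate 5 left out, 30 rose and 0 fell under roxadustat and 31 rose and 1 fell under DMOG. In retina RNA 23 of 38 rose under roxadustat and 5 of 38 under DMOG, with 0 lower by limma for either (0 and 1 lower at an unadjusted p under 0.05). The median log2 fold change of this list in retina was 0.53 for roxadustat and 0.18 for DMOG, beside 0.27 and 0.21 for the 10 genes. The list of the HIF oxygen-sensing pathway holds HIF subunits, their hydroxylases, Vhl, the genes of p300 and CBP, and Cited4. Of its 11 tested genes, 2 rose and 2 fell in liver under roxadustat, and 4 rose and 0 fell under DMOG. Without DMOG replicate 5 it was 3 and 2 under roxadustat and 4 and 1 under DMOG. Hif1a, an alpha subunit, averaged 11.8 ± 0.870 FPKM under roxadustat and 14.8 ± 1.49 FPKM under PBS in liver (-0.32 ± 0.08, adjusted p = 0.0303). Egln1 and Egln3 rose in liver under both compounds. Under roxadustat they averaged 18.4 ± 1.43 and 18.7 ± 1.34 FPKM, against 8.24 ± 0.753 and 6.96 ± 1.24 FPKM under PBS.

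Lists tied to what single members do were counted in the same way. Of 17 tested genes that control mTORC1, the kinase complex that Ddit4 restrains, 1 rose and 2 fell in liver under roxadustat, and 1 rose and 5 fell under DMOG, or 1 and 4 under roxadustat and 4 and 5 under DMOG without DMOG replicate 5. Eif4ebp1, a translation repressor that mTORC1 phosphorylates, rose under both compounds. It averaged 35.2 ± 3.63 FPKM under roxadustat and 36.3 ± 7.95 FPKM under DMOG, against 23.4 ± 4.58 FPKM under PBS. The 2 genes that fell under roxadustat, Prkaa2 and Tsc1, also fell under DMOG. Sesn3, another mTORC1 inhibitor, fell to 6.07 ± 3.07 FPKM under DMOG, against 12.2 ± 2.05 FPKM under PBS. In retina Sesn1, a sestrin that restrains mTORC1, was the 1 of 17 that rose under roxadustat, with 51.0 ± 2.85 FPKM against 37.8 ± 3.97 FPKM under PBS (0.43 ± 0.06, adjusted p = 2.40e-04). Under DMOG in retina 0 of 17 passed by limma, and 3 had an unadjusted p under 0.05. Of all genes tested in retina RNA, 1.69% rose under roxadustat and 0.370% under DMOG.

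Of 15 tested clock genes, the setting in which Bhlhe40 and Bhlhe41 act, 0 passed in liver under roxadustat by limma (6 at an unadjusted p under 0.05), while 3 rose and 7 fell under DMOG, beside 8.26% and 11.7% of all genes tested. With DMOG replicate 5 left out, it was 0 and 1 under roxadustat and 4 and 7 under DMOG. Per1, a clock repressor, rose to 4.38 ± 1.95 FPKM under DMOG, against 1.58 ± 0.452 FPKM under PBS. Hlf, a clock output factor, fell to 2.79 ± 1.95 FPKM under DMOG, against 8.74 ± 1.18 FPKM under PBS.

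Of 18 tested family relatives of the 10 genes, 0 rose and 1 fell in liver under roxadustat, and 2 rose and 4 fell under DMOG, or 0 and 2 under roxadustat and 4 and 6 under DMOG without DMOG replicate 5. Heyl, a helix-loop-helix repressor, averaged 1.14 ± 0.143 FPKM under roxadustat and 2.15 ± 0.387 FPKM under PBS in liver (-0.69 ± 0.12, adjusted p = 0.00210). Mxd3, a Max partner of the same family as Mxi1, fell in liver under DMOG (5.69 ± 0.987 FPKM, against 7.47 ± 0.676 FPKM under PBS) and rose in retina under roxadustat (2.29 ± 0.196 FPKM, against 1.41 ± 0.329 FPKM under PBS). Of 16 tested genes of the integrated stress response, 3 rose and 0 fell in liver under roxadustat, and 5 rose and 2 fell under DMOG, or 3 and 0 under roxadustat and 8 and 3 under DMOG without DMOG replicate 5. Of 12 glucocorticoid targets, 2 rose and 0 fell in liver under roxadustat, and 5 rose and 3 fell under DMOG, or 2 and 1 under roxadustat and 6 and 3 under DMOG without DMOG replicate 5. Of 12 housekeeping genes, 0 passed in liver under roxadustat by limma (2 at an unadjusted p under 0.05) and 1, Hprt, rose under DMOG, or 1 rose under roxadustat and 2 under DMOG without DMOG replicate 5.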

How the data were processed

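Per the labels' protocols, total RNA was extracted with RNeasy columns and made into libraries with a stranded kit after ribosomal RNA depletion. Per the submitters' processing notes, the tools were Cuffdiff 2.2.1, TopHat2 (version 2) and bcl2fastq 1.8.3, on build mm9, and the deposited tables hold FPKM per library, per the file headers. The annotation and the scaling between libraries are not given in the sources used here. A row of totals was left out, and 25 rows that carry spreadsheet dates as names were kept.

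Each table was tested on log2(FPKM + 0.5) with limma 3.58.1 (R 4.3.3, empirical Bayes with a mean trend). A gene entered if it averaged 0.5 FPKM or more over the 18 libraries, which left 12657 in liver RNA and 13779 in retina RNA. The model had 3 group means, the tests were two-sided, and p-values were adjusted by Benjamini and Hochberg's method over every gene of the table, with 0.05 as the threshold. Tissue differences were fitted over all 36 libraries. The rule was to name all 10 genes, up to 3 called genes per list and comparison with the smallest adjusted p, and for each gene the 1 other gene of highest Pearson's r. The scripts were tested on simulated data. The 10 genes, the lists and the tests were chosen with earlier results of these data known. The list of lipoprotein uptake and reelin signalling genes is not reported here.

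Promoter sequences are those of RefSeq on GRCm38.p6, a build other than that of the files, cut at the first exon of the GENCODE annotation. The fit without 4 retina libraries was chosen after seeing the data, and that without DMOG replicate 5 with earlier results known. Summaries and figures were made with Python 3.11.15, pandas 2.3.3 and matplotlib 3.10.9.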

Additional observations from a re-analysis of the deposited data

Results flagged for a closer look

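In 8 of 60 groups of 6 libraries, 1 library stood apart from the other 5 by Dixon's test on FPKM without logs, where chance gives about 1 in 20. The 60 groups are the same genes and libraries taken again, so they are not independent. Whether 8 is more than chance gives was not tested. In liver RNA these were the lowest roxadustat value of Ankrd37, 9.07 FPKM, the highest DMOG value of Ndrg1, 61.1 FPKM, and the highest roxadustat value of Stc1, 1.798 FPKM. In retina RNA the lowest PBS values of Mxi1, 20.6 FPKM, and of Vldlr, 25.7 FPKM, both lay in PBS replicate 1. The other 3 in retina RNA were the lowest DMOG value of Cited2, 51.7 FPKM, its highest roxadustat value, 64.6 FPKM, and the highest DMOG value of Stc2, 1.70 FPKM. DMOG replicate 5 of liver RNA was not among these libraries.

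The response differed between the tissues, by the test of the difference itself (liver minus retina, log2), for 6 gene and compound pairs. For DMOG it was 2.82 for Ankrd37, 1.34 for Ndrg1, 1.29 for Cited2, 0.92 for Ddit4 and 0.84 for Stc1. For roxadustat it was 0.76 for Stc1. Stc1 passed the filter in liver RNA through its treated groups.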

How the results depend on the processing

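The counts of genes called were refitted under other pseudocounts, filters, scalings, empirical Bayes settings, an Xist covariate, a replicate block and with each library left out. Leaving out 1 library gave 8 to 9 calls for DMOG and 4 to 8 for roxadustat in liver RNA, and 0 to 3 for roxadustat against DMOG, with 3 without DMOG replicate 5. In retina RNA it gave 1 to 3 for DMOG, 3 to 5 for roxadustat and 0 to 1 for roxadustat against DMOG. For the tissue difference without liver DMOG replicate 5 the counts were 8 for DMOG and 4 for roxadustat. A mean of at least 5 FPKM left 5 calls for DMOG in liver RNA and 0 for the tissue difference of roxadustat, which was also 0 with a pseudocount of 1. With no filter, those of Cited2 and Mxi1 for roxadustat in liver RNA were lost, which left 4. The calls for roxadustat in retina RNA numbered 3 with no filter, 2 at an equal total per library, where that of Mxi1 was lost too, 3 with an Xist covariate and 3 without the 4 libraries of high lens marker level, and those for DMOG 1 without these. Causes were not tested, beyond the smaller sets of genes or libraries.

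Equal totals also moved the split of all called genes in liver RNA: 238 higher and 521 lower for roxadustat (274 and 256 as deposited), 584 and 2690 for DMOG (1046 and 1480), and 461 and 97 for roxadustat against DMOG (235 and 144). Of 1798 refits of single genes, 1695 kept direction and side of the threshold, 68 lost a call, 16 gained one and 19, none called before, changed sign. These sign changes came with 1 library left out, over which roxadustat minus DMOG in liver RNA ranged from -0.10 to 0.14 for Mxi1, -0.10 to 0.39 for Ddit4, -0.19 to 0.15 for Bhlhe40 and -0.050 to 0.18 for Stc1. DMOG minus PBS in retina RNA ranged from -0.064 to 0.14 for Bhlhe40 and -0.045 to 0.12 for Stc1, and was -0.041 for Bhlhe40 with the Xist covariate. Roxadustat minus DMOG in retina RNA ranged from -0.057 to 0.016 for Ndrg1 and -0.0066 to 0.044 for Cited2.

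Whether same-numbered libraries are pairs is not given. Correlations of their deviations from the group means ran from -0.333 to 0.546 in liver RNA and -0.240 to 0.315 in retina RNA. In each, 7 of 18 were over 0.1, which cannot settle whether they pair. Whether same-numbered liver and retina libraries share an animal was not checked, and the fit over 36 libraries took them as independent. Among all genes tested in liver RNA, calls for DMOG numbered 2843 with a replicate block and 2526 without it. With a replicate block, the calls for roxadustat were 3 in retina RNA and 0 for the tissue difference, and Cited2 and Mxi1 missed the threshold in liver RNA. Read depth is unknown, which leaves the precision of Stc1, Stc2 and Bhlhe41 in liver RNA, all near or below 1 FPKM, unstated.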
